A study of Homo sapiens with 45 samples.

Results

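The 45 genes described here encode proteins of mitosis and of G2, the phase before it, and they were taken by symbol from tables of 38557 genes. They were chosen by function and not by a threshold on measured values. All 45 were present in both deposited expression tables and all 45 passed the filter on low values, so that each was tested in every comparison. By role they were 8 genes of the kinase that starts mitosis and its regulators, 9 of the spindle checkpoint and of the anaphase-promoting complex (APC/C), 8 mitotic kinases and their partners, 7 kinetochore genes, 11 of the spindle and of cytokinesis, and the 2 chromosome genes TOP2A and MKI67. Their mRNA was measured by RNA-seq in 45 libraries of 4 human T-cell acute lymphoblastic leukaemia (T-ALL) lines, in 15 groups of 3 libraries.

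In G2, cyclin A and cyclin B bind the kinase CDK1, and CDC25 phosphatases switch it on. Kinetochore proteins then hold chromosomes on the spindle, and the checkpoint keeps the APC/C inactive until all of them are attached. With CDC20, the APC/C marks cyclin B and securin for destruction, separase opens the cohesin rings, and the cell divides. The mRNAs of most of these proteins peak late in the cell cycle, under the transcription factors FOXM1 and MYBL2 and the MuvB complex, and they are abundant in dividing leukaemia cells.

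Jurkat cells that expressed Cas9 received guides against SMARCA4 and SMARCA2 (gSMARCA4_A2), SMARCA4 alone (gSMARCA4), ARID1A and ARID1B (gARID1A_1B), ARID1A alone (gARID1A), or the AAVS1 site (gAAVS1), a harmless locus that serves as the cut control. All 5 groups had puromycin for 4 days, and RNA was taken on day 10 after transduction. Other Jurkat cells received 1 uM BRM014 or 0.01% DMSO for 6 h or for 8 d, and the lines CCRF-CEM, KOPT-K1 and TALL-1 received the same agents for 6 h. ARID1A, ARID1B, SMARCA4 and SMARCA2 belong to cBAF, a chromatin remodelling complex, and BRM014 inhibits the ATPase activity of SMARCA4 and SMARCA2. The labels name no clones, so each guide group is read as a selected population in which some cells may keep an intact target. Labels call the libraries biological replicates. They do not say whether these were separate cultures, and p-values then measure only the spread between these libraries.

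The promoters of 38 of the 45 genes were matched in the RefSeq table of GRCh38.p14, in 50 windows of 250 bases before a start. The letters searched for, on both strands, were CCAAT, the box bound by the factor NF-Y, and TTTGAA and TTCGAA, the core of the element through which MuvB complexes bind cell-cycle genes. CCAAT stood in 37 of the 50 windows (74%) and in 32.0% of all 35116 windows of that length. TTTGAA stood in 25 windows (50%) and in 13.3% of all windows, and TTCGAA in 1 window (2%) and in 1.19% of all. CCAAT together with either of the other motifs was present in 23 windows (46%), against 5.05% of all windows. A match is a description of the letters and not evidence of binding. The stretches of 150 bases that follow lie just upstream of the first exon of 6 genes on which the results turn. PTTG1 and KIF2C were lower in nearly every comparison, CENPF fell the most in the ARID1A groups, ESPL1 had opposite changes at 6 h and 8 d, and KIF11 and CKS2 did not follow the others. Capitals mark the motifs on either strand (ATTGG is CCAAT and TTCAAA is TTTGAA read from the other strand), and in PTTG1 a forward and a reverse CCAAT share bases. All 6 are on the plus strand.
PTTG1: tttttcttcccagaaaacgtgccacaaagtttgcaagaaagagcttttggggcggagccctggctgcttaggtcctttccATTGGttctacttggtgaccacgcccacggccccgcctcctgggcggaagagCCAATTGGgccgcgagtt
KIF2C: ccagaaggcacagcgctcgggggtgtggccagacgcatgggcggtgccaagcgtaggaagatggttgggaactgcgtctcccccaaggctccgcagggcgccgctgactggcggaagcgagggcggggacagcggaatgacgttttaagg
CENPF: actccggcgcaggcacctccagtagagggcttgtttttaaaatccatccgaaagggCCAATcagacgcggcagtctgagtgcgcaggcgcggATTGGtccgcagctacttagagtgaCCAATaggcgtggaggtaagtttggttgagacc
ESPL1: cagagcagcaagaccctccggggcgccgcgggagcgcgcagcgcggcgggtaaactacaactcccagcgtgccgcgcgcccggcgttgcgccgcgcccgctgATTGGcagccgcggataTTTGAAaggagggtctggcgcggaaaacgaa
KIF11: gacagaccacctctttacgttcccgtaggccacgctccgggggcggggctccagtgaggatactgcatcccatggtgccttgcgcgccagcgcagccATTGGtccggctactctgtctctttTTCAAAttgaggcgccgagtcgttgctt
CKS2: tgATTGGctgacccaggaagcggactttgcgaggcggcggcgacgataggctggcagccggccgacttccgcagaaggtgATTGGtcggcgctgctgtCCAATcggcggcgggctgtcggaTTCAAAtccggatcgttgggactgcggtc
They lie at chr5:160421672-160421821 (PTTG1), chr1:44739668-44739817 (KIF2C), chr1:214603045-214603194 (CENPF), chr12:53268149-53268298 (ESPL1), chr10:92592980-92593129 (KIF11) and chr9:89311045-89311194 (CKS2) of GRCh38.p14. KIF2C held none of the 3 motifs in the stretch shown, PTTG1 and CENPF held CCAAT alone, and ESPL1, KIF11 and CKS2 held CCAAT and TTTGAA. Whether the motifs go with the changes in mRNA was not tested.

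Values are TPM (a length-corrected read share), as the authors deposited them. Because the TPM of a library sum to a fixed total, a TPM value is a share of the mRNA and not an amount per cell. Reads assigned to genes numbered between 29.7 and 47.9 M per Jurkat library, and between 19.7 and 27.0 M per library elsewhere, and no gene of the 45 had fewer than 176 reads in any library. The mitochondrial genome gave between 20.0 and 24.9% of all TPM in a Jurkat library, but 4.99 to 8.04% in CCRF-CEM, KOPT-K1 and TALL-1. SMARCA4 averaged 49.9 ± 2.35 TPM in gSMARCA4_A2 and 44.2 ± 1.63 TPM in gSMARCA4, against 97.5 ± 2.41 TPM in gAAVS1 (SD, n = 3). ARID1B averaged 11.9 ± 0.993 TPM in gARID1A_1B and 22.7 ± 0.525 TPM in gAAVS1. ARID1A averaged 83.1 ± 3.38 TPM in gARID1A and 101 ± 5.07 TPM in gARID1A_1B, against 94.4 ± 0.697 TPM in gAAVS1. SMARCA2 averaged 22.4 ± 0.288 TPM in gSMARCA4_A2 and 21.8 ± 0.931 TPM in gAAVS1, so that mRNA levels do not show whether SMARCA2, or ARID1A in gARID1A_1B, was disrupted. The T-cell marker CD3D stood at 423 TPM or more in every library, and the markers of B cells, erythroid cells and platelets MS4A1, HBB and PF4 were at 0 in all. In TALL-1, replicate 3 was the lowest of its group for 43 of the 45 genes after BRM014 and for 43 after DMSO, and in Jurkat at 6 h replicate 2 was the lowest for 37 and 40. For TALL-1 and for Jurkat at 6 h, counts of genes called are given with and without these libraries. Values of single genes are mostly given only with them.

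**Figure D1:**
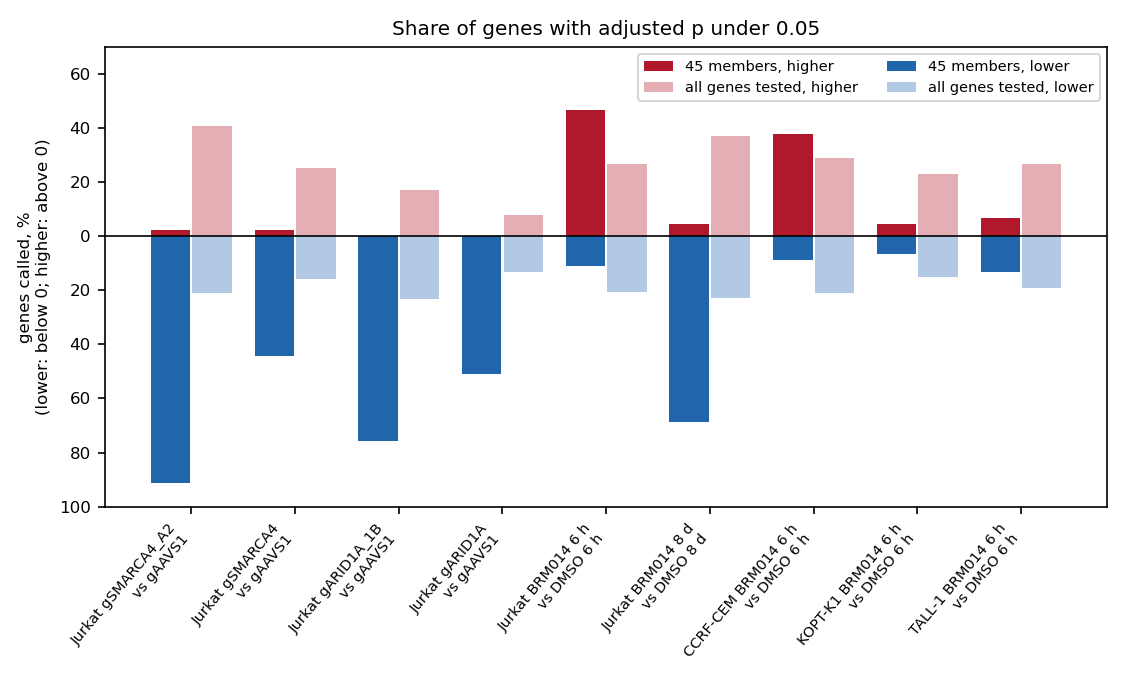
Share of genes that passed the test (limma adjusted p under 0.05) in each of 9 comparisons, in percent, with higher genes above 0 and lower genes below. Dark bars stand for the 45 mitosis and G2/M genes and pale bars for all genes tested. In gSMARCA4_A2 41 of the 45 genes were lower, while in Jurkat at 6 h 21 were higher.

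Most of the mitotic programme was lower in Jurkat cells with guides against both ATPases. Of the 45 genes 41 fell and 1 rose in gSMARCA4_A2, while 21.1% of all 17936 genes tested were lower and 40.9% were higher. The median log2 fold change of the 45 was -0.47, against 0.11 over all genes. In 42 of them every gSMARCA4_A2 library lay beyond every gAAVS1 library, as in 69.2% of all genes. Together the 45 genes summed to between 3622 and 3762 TPM in gSMARCA4_A2 and between 4748 and 4946 TPM in gAAVS1. In bulk RNA, fewer cells in G2 and mitosis and less of each mRNA per cell cannot be told apart, here or in any result that follows.

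**Figure D2:**
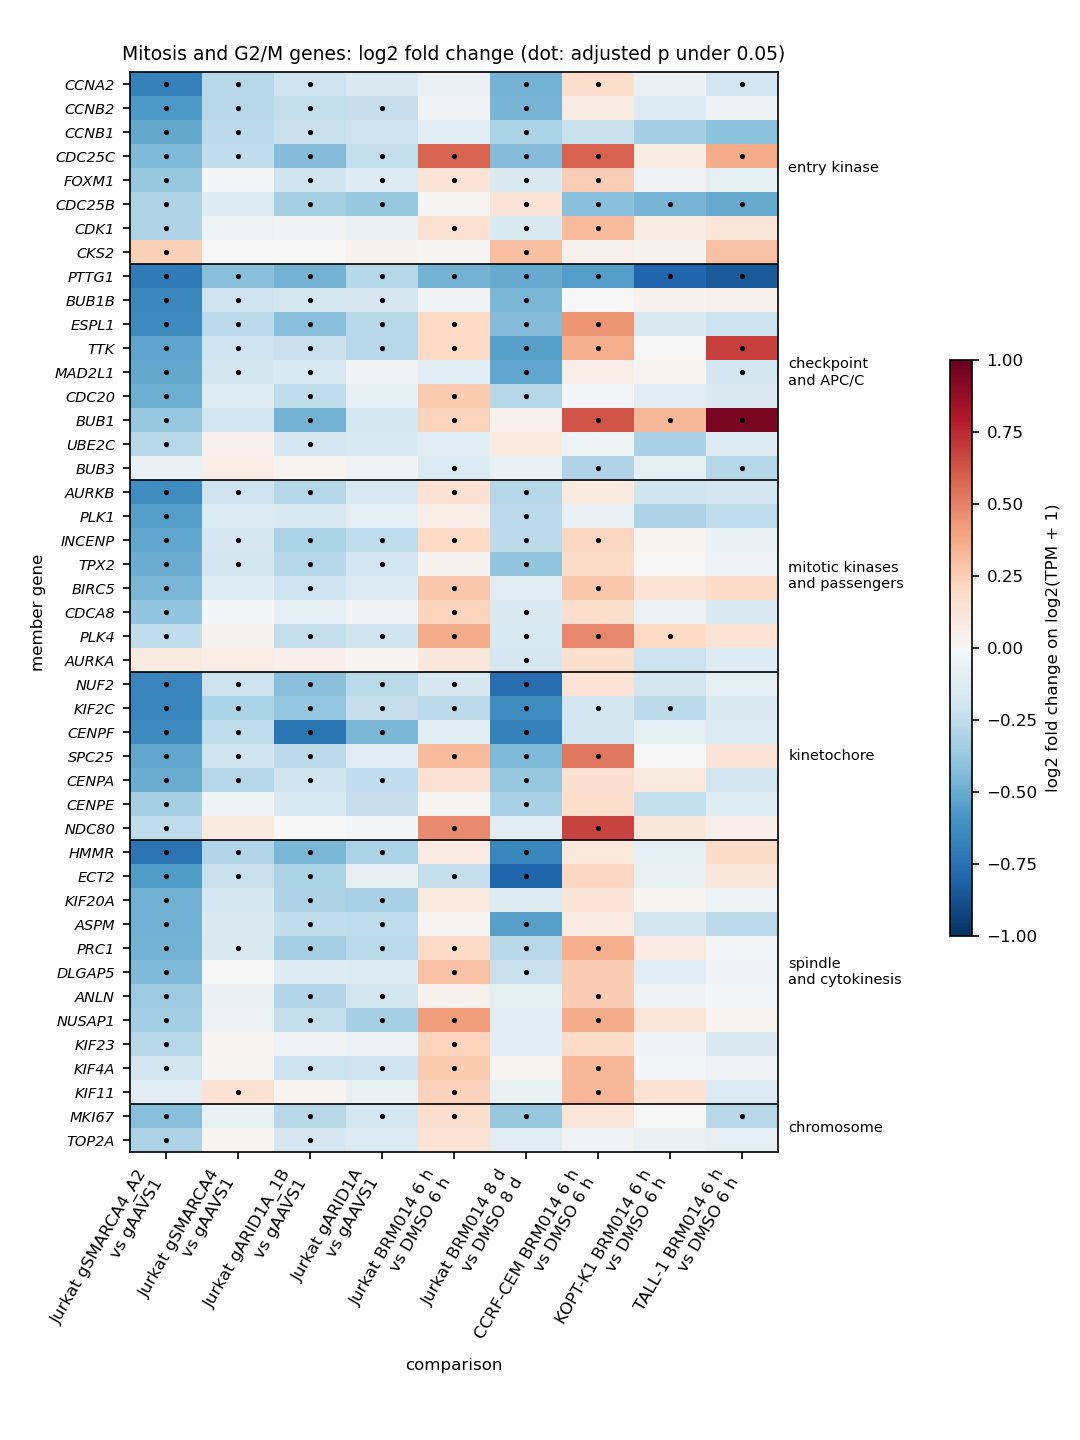
Log2 fold change on log2(TPM + 1) of each of the 45 genes (rows, grouped by role and ordered by the change in gSMARCA4_A2) in 9 comparisons (columns). Blue is lower and red is higher, and a dot marks an adjusted p under 0.05. The gSMARCA4_A2 column is blue apart from AURKA and CKS2, the 6 h columns hold red and blue, and PTTG1 carries a dot in each column.

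Among the genes of the entry kinase 7 of 8 fell in gSMARCA4_A2. Cyclin A2 (CCNA2) had 86.8, 85.5 and 85.9 TPM in gSMARCA4_A2, against 134, 145 and 135 TPM in gAAVS1. The groups were far apart, and the log2 fold change was -0.67 ± 0.05 (SE; limma adjusted p = 8.07e-10). Cyclin B1 (CCNB1) had 123, 137 and 135 TPM in gSMARCA4_A2 and 181, 195 and 187 TPM in gAAVS1. All 3 gSMARCA4_A2 libraries were lower, with a log2 fold change of -0.51 ± 0.07 (adjusted p = 4.48e-06). CDK1, their partner kinase, had between 85.7 TPM and 88 TPM in gSMARCA4_A2 and 107, 114 and 102 TPM in gAAVS1. It fell less than its cyclins, by 0.30 ± 0.05 on the log2 scale (adjusted p = 2.08e-05). FOXM1, the transcription factor that drives G2 genes, had 116, 128 and 121 TPM in gSMARCA4_A2 and 160, 160 and 156 TPM in gAAVS1 (-0.38 ± 0.04). CKS2, a small subunit that binds CDK1, was the exception. Its levels were 397, 379 and 358 TPM in gSMARCA4_A2 and 302, 341 and 317 TPM in gAAVS1, with no overlap and a log2 fold change of 0.24 ± 0.08 (adjusted p = 1.01e-02). The CKS2 call ended when gAAVS1 replicate 1 or gSMARCA4_A2 replicate 1 was left out (adjusted p up to 0.0528) and when libraries were rescaled by their median ratio. Its paralogue CKS1B was also abundant, at a mean of 234 TPM in Jurkat, and reads of near-identical stretches could be split between them.

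The checkpoint and APC/C genes fell in 8 of 9 cases. Securin (PTTG1), the inhibitor of separase, had 45.8, 48.8 and 50.1 TPM in gSMARCA4_A2 and 78.6, 79.4 and 79.0 TPM in gAAVS1. The gAAVS1 values lay within 1 TPM of each other, and the log2 fold change was -0.70 ± 0.09 (adjusted p = 4.62e-07). Separase itself (ESPL1) had 26.0, 26.8 and 26.1 TPM in gSMARCA4_A2, against 41.5, 40.8 and 41.6 TPM in gAAVS1 (-0.63 ± 0.05). BUBR1 (BUB1B), a subunit of the checkpoint complex that restrains CDC20, had 70.3, 71.3 and 71.5 TPM in gSMARCA4_A2, against 109, 116 and 110 TPM in gAAVS1 (-0.64 ± 0.05). CDC20, the activator of the APC/C, had 146, 169 and 160 TPM in gSMARCA4_A2 and 217, 220 and 231 TPM in gAAVS1. All of the gSMARCA4_A2 libraries were lower (-0.49 ± 0.08, adjusted p = 9.27e-06). BUB3, an adaptor that brings checkpoint proteins to kinetochores, did not pass the test (-0.07, adjusted p = 0.223).

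Of the mitotic kinases and their partners 7 of 8 fell. PLK1, a kinase of centrosome maturation and chromosome separation, had 118, 123 and 123 TPM in gSMARCA4_A2 and 170, 183 and 183 TPM in gAAVS1. The log2 fold change was -0.55 ± 0.09 (adjusted p = 1.22e-05). Members of the chromosomal passenger complex fell together, AURKB by 0.62, INCENP by 0.52, BIRC5 by 0.46 and CDCA8 by 0.39 on the log2 scale. AURKA, the Aurora kinase of spindle poles, did not pass the test in any guide group. It had 73.3, 82.2 and 85.3 TPM in gSMARCA4_A2 and 74.8, 78.1 and 73.4 TPM in gAAVS1, with overlapping groups (0.09 ± 0.06, adjusted p = 0.25). Its activator TPX2 fell by 0.49 on the log2 scale.

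All 7 kinetochore genes fell in gSMARCA4_A2. KIF2C, a kinesin that removes tubulin from microtubule ends, had 63.8, 62.7 and 63.4 TPM in gSMARCA4_A2 and 98.3, 103 and 99.3 TPM in gAAVS1 (-0.66 ± 0.05, adjusted p = 9.23e-11). NUF2, a subunit of the NDC80 complex that grips microtubules, had 48.9, 49.5 and 48.1 TPM in gSMARCA4_A2 and 77.6, 78.3 and 77.8 TPM in gAAVS1 (-0.66 ± 0.06). The 3 subunits of that complex were unequal, since SPC25 fell by 0.52 and NDC80 by 0.25. CENPF, a large kinetochore protein, had 82.7, 82.9 and 80.7 TPM in gSMARCA4_A2 and 132, 128 and 122 TPM in gAAVS1 (-0.63 ± 0.07, adjusted p = 3.85e-08).

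In the spindle and cytokinesis group 10 of 11 genes fell. HMMR, a microtubule-binding protein of spindle poles, had between 49.7 and 50.5 TPM in gSMARCA4_A2 and 92.1, 81.9 and 78.9 TPM in gAAVS1. This was the largest change among the 45 genes in gSMARCA4_A2, at -0.74 ± 0.08 (adjusted p = 6.75e-08). KIF11, the kinesin that pushes spindle poles apart, had 96.6, 102 and 97.6 TPM in gSMARCA4_A2 and 108, 110 and 102 TPM in gAAVS1. The groups overlapped, and it did not pass the test (-0.11 ± 0.05, adjusted p = 0.055). TOP2A, which untangles chromosomes, had 182, 183 and 174 TPM in gSMARCA4_A2 and 228, 229 and 212 TPM in gAAVS1 (-0.31 ± 0.06). MKI67, the coat protein of mitotic chromosomes known as the proliferation marker Ki-67, had 120, 122 and 110 TPM in gSMARCA4_A2 and 167, 158 and 148 TPM in gAAVS1 (-0.42 ± 0.05). Leaving out any of the 6 libraries of this comparison left 41 to 43 genes called.

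The guide against SMARCA4 alone gave a smaller change of fewer genes. In gSMARCA4 20 genes fell and 1 rose, while 15.8% of all genes tested were lower and 25.1% higher, and the median of the 45 was -0.14, against 0.04 over all genes. PTTG1 had 53.3, 62.2 and 61.1 TPM in gSMARCA4, below the 78.6 TPM of the lowest gAAVS1 library (-0.42 ± 0.09, adjusted p = 5.02e-04). KIF2C had 79.8, 81.3 and 80.1 TPM in gSMARCA4 and fell by 0.32 on the log2 scale (adjusted p = 9.97e-06). CCNB1 had 147, 160 and 163 TPM in gSMARCA4 (-0.26), a call that ended without gSMARCA4 replicate 1 (adjusted p = 0.0507). PLK1 had 162, 161 and 163 TPM in gSMARCA4, all below gAAVS1, and did not pass the test (-0.14, adjusted p = 0.224). The gene that rose was KIF11, with 111, 125 and 117 TPM in gSMARCA4 (0.14 ± 0.05, adjusted p = 2.14e-02). Its call ended without gAAVS1 replicate 3 or gSMARCA4 replicate 2 (adjusted p up to 0.139) and after median-ratio rescaling.

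Cells with guides against both ATPases differed from those with the SMARCA4 guide alone. Set directly against gSMARCA4, gSMARCA4_A2 had 41 genes lower and 1 higher, while 12.3% of all genes tested were lower and 26.5% higher. The median of the 45 in that comparison was -0.32. CDC20 had 146, 169 and 160 TPM in gSMARCA4_A2 and 202, 200 and 212 TPM in gSMARCA4. AURKB, the catalytic subunit of the passenger complex, had 75.0, 79.0 and 77.8 TPM in gSMARCA4_A2 and 103, 103 and 104 TPM in gSMARCA4, a log2 fold change of -0.41. CKS2 was higher by 0.23. AURKA (0.02, adjusted p = 0.801), BUB1 (-0.18, adjusted p = 0.110) and CDC25C (-0.20, adjusted p = 0.0589) did not pass the test.

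In cells with guides against the ARID1 subunits the programme was lower too, and another gene, CENPF, had the largest change. In gARID1A_1B 34 genes fell and 0 rose, while 23.1% of all genes tested were lower and 17% higher. The median of the 45 was -0.24, against -0.03 over all genes. In gARID1A 23 genes fell and 0 rose, while 13.2% of all genes were lower and 7.72% higher, with a median of -0.18. CENPF fell the most in both, with 79.6, 76.7 and 72.8 TPM in gARID1A_1B and 98.0, 91.9 and 89.9 TPM in gARID1A, against 132, 128 and 122 TPM in gAAVS1. Its log2 fold change was -0.73 ± 0.07 in gARID1A_1B (adjusted p = 1.06e-08) and -0.45 ± 0.07 in gARID1A (adjusted p = 3.17e-05). BUB1, the kinase that recruits checkpoint proteins to kinetochores, had 100, 111 and 107 TPM in gARID1A_1B and 140, 155 and 150 TPM in gAAVS1 (-0.47 ± 0.09). PTTG1 had 56.3, 57.0 and 56.5 TPM and HMMR between 59.2 and 63.5 TPM in gARID1A_1B, changes of -0.47 and -0.46 against gAAVS1. CDC25C had 13.0, 12.6 and 12.0 TPM and ESPL1 31.3, 30.5 and 29.7 TPM in gARID1A_1B, both with a change of -0.43. For all 4 the gARID1A_1B libraries lay below every gAAVS1 library. In gARID1A BUB1 had 123, 135 and 135 TPM and did not pass the test (-0.18, adjusted p = 0.167). CDC25B, a phosphatase that activates CDK1, had 32.8, 32.4 and 35.0 TPM in gARID1A, against 44.6, 43.2 and 43.1 TPM in gAAVS1 (-0.38 ± 0.05, adjusted p = 2.75e-05). NUSAP1, which bundles spindle microtubules, had 125, 131 and 132 TPM in gARID1A and 160, 169 and 160 TPM in gAAVS1 (-0.33 ± 0.05). KIF20A, a kinesin of cytokinesis, had 44.4, 49.1 and 47.9 TPM in gARID1A and 56.3, 60.9 and 60.6 TPM in gAAVS1 (-0.33), and TTK had 79.9, 79.5 and 77.2 TPM in gARID1A and 94.3, 100 and 93.8 TPM in gAAVS1 (-0.28). CDK1, with 105, 101 and 101 TPM in gARID1A, overlapped gAAVS1 and did not pass the test in gARID1A or gARID1A_1B. The count in gARID1A rested on single libraries, since 13 genes were called without gAAVS1 replicate 2. The call of PTTG1 in gARID1A (-0.29, adjusted p = 0.0226) ended in 5 of 6 fits with a library left out, at an adjusted p of up to 0.0695.

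The 4 guide comparisons share the gAAVS1 libraries, so their agreement with each other is not independent. The direct comparison of gARID1A_1B with gARID1A, in which neither group is gAAVS1, had 5 genes lower (11.1% of the 45) and 0 higher. Of all genes 10.6% were lower and 10.3% higher, so the share of the 45 that was lower was near that of all genes. The 5 lower genes were BUB1 (-0.30), CENPF (-0.29), ECT2 (-0.24), KIF2C (-0.16) and ESPL1 (-0.15). Of these calls 1 held in every fit with a library left out. Without gARID1A replicate 2 the count was 2, without gARID1A replicate 3 it was 3, and without gARID1A_1B replicate 1 it was 2. The groups with both paralogues of a subunit targeted differed from each other. In gSMARCA4_A2 30 genes were lower and 1 was higher than in gARID1A_1B, while 14% of all genes were lower and 43.2% higher. BUB1B and CCNA2 were lower by 0.47 and 0.46 in gSMARCA4_A2. CENPF, at 82.7, 82.9 and 80.7 TPM in gSMARCA4_A2 and 79.6, 76.7 and 72.8 TPM in gARID1A_1B, did not pass the test in that comparison (0.10).

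**Figure D3:**
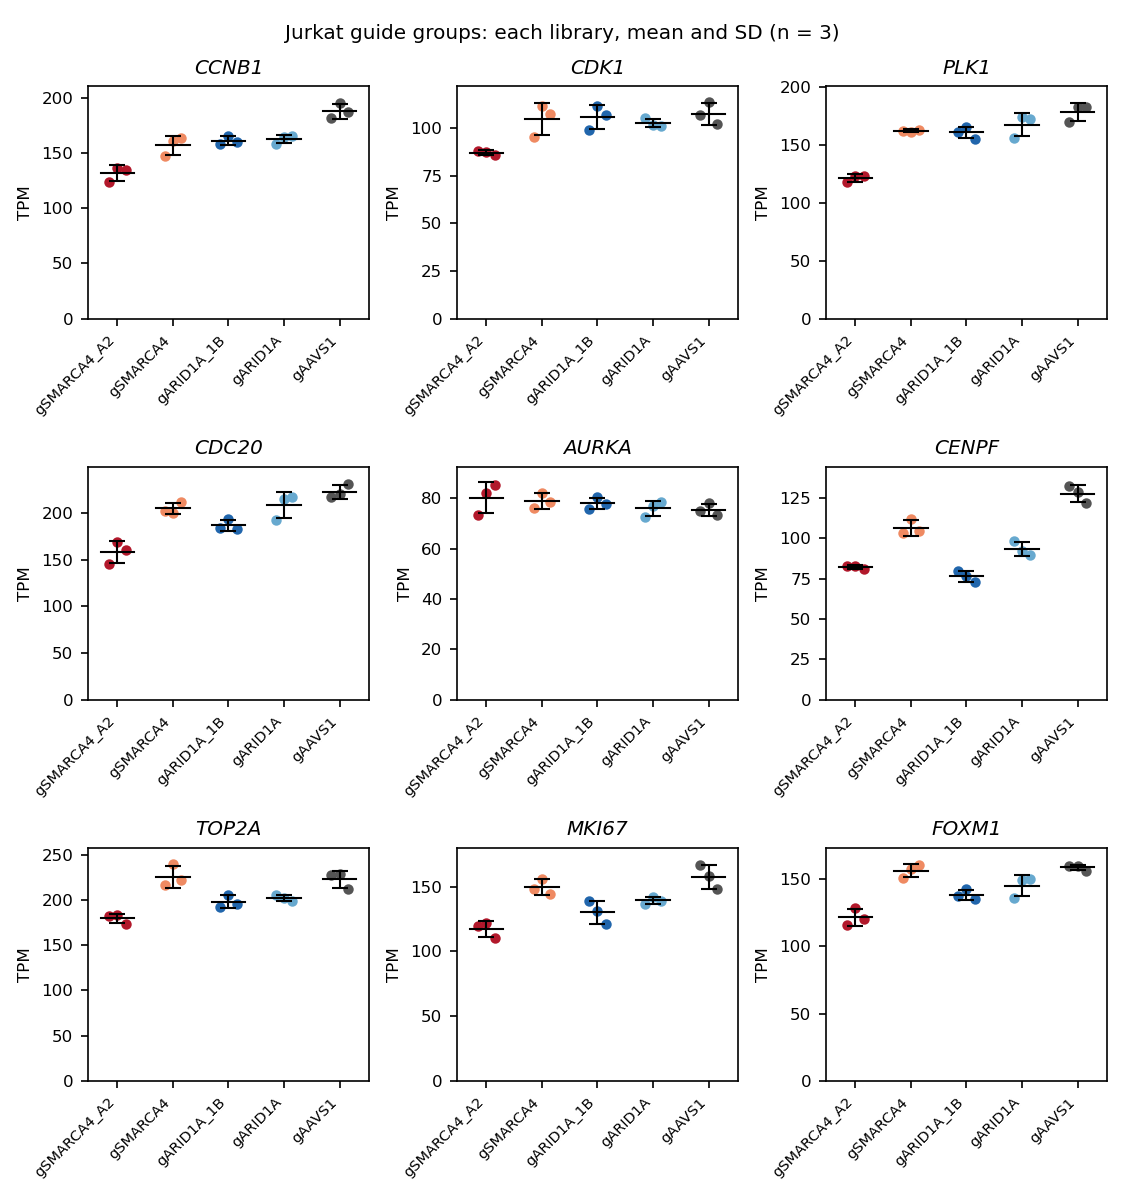
TPM of 9 mitotic genes in the Jurkat guide groups, with 1 point per library, a line at the mean and bars of 1 SD (n = 3). For CCNB1, PLK1 and CDC20 the gSMARCA4_A2 libraries lie below all others, for CENPF the gARID1A_1B libraries are as low as those of gSMARCA4_A2, and for AURKA the groups overlap.

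Inhibition of the ATPases for 6 h gave a mixed picture in Jurkat. After BRM014 21 genes rose and 5 fell, while 26.8% of all genes tested were higher and 20.7% lower, and the median of the 45 was 0.13, against 0.04 over all genes. With single libraries left out the median ran from 0.076, without DMSO replicate 2, to 0.17, without BRM014 replicate 2, and 19 to 28 genes were called. The groups did not overlap for 25 genes, or 55.6% of the 45, close to the 53.2% of all genes. CDC25C, a phosphatase that activates CDK1, had 21.8, 18.8 and 20.1 TPM with BRM014 and 15.4, 10.9 and 13.7 TPM with DMSO. It rose the most (0.58 ± 0.08, adjusted p = 4.64e-06). NDC80, the namesake of the kinetochore complex, had 109, 98.7 and 111 TPM with BRM014 and 79.1, 71.8 and 77.3 TPM with DMSO (0.47 ± 0.06, adjusted p = 1.08e-06). NUSAP1 had 213, 185 and 208 TPM with BRM014, against 160, 140 and 154 TPM with DMSO (0.41 ± 0.05). The kinase PLK4, the driver of centriole duplication, had 51.3, 51.2 and 51.6 TPM with BRM014 and 39.9, 41.0 and 37.5 TPM with DMSO (0.37 ± 0.06). SPC25, a subunit of the same complex as NDC80, had 34.8, 32.0 and 38.4 TPM with BRM014 and 30.5, 24.9 and 28.8 TPM with DMSO (0.31 ± 0.08). DLGAP5, a spindle microtubule protein, had 126, 109 and 125 TPM with BRM014 and 108, 87.2 and 97.5 TPM with DMSO (0.29 ± 0.07). In all of these but PLK4 replicate 2 was the lowest in both arms, and in all 6 every BRM014 library lay above every DMSO library.

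Against this direction PTTG1 had 60.8, 45.8 and 56.9 TPM with BRM014 at 6 h and 84.6, 64.7 and 78.2 TPM with DMSO. All 3 BRM014 libraries were lower (-0.47 ± 0.09, adjusted p = 1.28e-04). KIF2C had 84.3, 72.4 and 77.9 TPM with BRM014 and 96.4, 87.1 and 97.8 TPM with DMSO (-0.26 ± 0.05, adjusted p = 7.84e-05). ECT2, the exchange factor that sets the cleavage furrow, had 71.5, 74.7 and 69.7 TPM with BRM014 and 87.8, 87.3 and 79.7 TPM with DMSO, and fell by 0.23 on the log2 scale. The calls of NUF2 (-0.16) and BUB3 (-0.14) ended in 4 and 3 of the 6 fits with a library left out (adjusted p up to 0.149). CCNB1, with 209, 170 and 203 TPM after BRM014 and 221, 189 and 214 TPM after DMSO, did not pass the test (-0.10, adjusted p = 0.279), and neither did PLK1, AURKA or TOP2A. Replicate 2 was low in both arms, and without it in both 17 genes were higher and 3 lower, an alternative chosen after the data were seen. Of the 26 calls 17 held in every fit with a library left out. The calls of CDC20, MKI67, TTK, AURKB, FOXM1 and BUB1 (0.13 to 0.26 on the log2 scale) were among those that ended when DMSO replicate 2 was left out.

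After 8 d of BRM014 the direction was down. In Jurkat 31 genes fell and 2 rose, while 23% of all genes tested were lower and 36.9% higher. The median of the 45 was -0.28, against 0.08 over all genes, and the groups did not overlap for 39 genes, as for 58.8% of all genes. ECT2 had 46.9, 52.1 and 47.1 TPM with BRM014 and 89.5, 81.1 and 85.4 TPM with DMSO. It fell the most, by 0.80 ± 0.06 on the log2 scale (adjusted p = 2.57e-10). NUF2 had 46.6, 50.7 and 46.1 TPM with BRM014 and 93.3, 75.7 and 76.5 TPM with DMSO (-0.76 ± 0.06, adjusted p = 4.46e-10). CENPF had 71.9, 85.4 and 75.7 TPM with BRM014, against 134, 113 and 126 TPM with DMSO (-0.67 ± 0.07). HMMR had 51.3, 59.3 and 54.3 TPM with BRM014 and 92.7, 86.8 and 81.0 TPM with DMSO (-0.65 ± 0.08). KIF2C had 56.1, 56.1 and 57.3 TPM with BRM014 and 92.3, 86.4 and 84.4 TPM with DMSO (-0.62 ± 0.05). ASPM, a spindle pole protein, had 39.3, 48.1 and 39.8 TPM with BRM014 and 63.7, 58.6 and 63.7 TPM with DMSO (-0.54 ± 0.09, adjusted p = 1.09e-05). In each of these 6 genes every BRM014 library lay below every DMSO library.

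Among the classical mitotic genes the decrease at 8 d was uneven. CCNB1 had 121, 133 and 126 TPM with BRM014 and 141, 163 and 171 TPM with DMSO (-0.32 ± 0.07, adjusted p = 9.58e-04). MKI67 had 96.6, 109 and 98.1 TPM with BRM014 and 132, 126 and 137 TPM with DMSO (-0.38 ± 0.05). CDK1 had 98.8, 102 and 97.3 TPM with BRM014 and 108, 111 and 111 TPM with DMSO (-0.14), a call that ended without BRM014 replicate 3 (adjusted p = 0.0608). PLK1 had 122, 123 and 122 TPM with BRM014 and 142, 157 and 141 TPM with DMSO (-0.26), a call that ended without DMSO replicate 2 (adjusted p = 0.0694). TOP2A had 194, 219 and 196 TPM with BRM014 and 219, 218 and 223 TPM with DMSO, overlapped, and did not pass the test (-0.12, adjusted p = 0.103). As in gSMARCA4_A2 CKS2 rose, with 371, 370 and 359 TPM with BRM014 and 250, 320 and 327 TPM with DMSO (0.30 ± 0.08, adjusted p = 1.82e-03). DMSO replicate 1 was the lowest, and without it the log2 fold change was 0.18 (adjusted p = 0.0182). CDC25B also rose, by 0.13, a call that ended in 4 of 6 fits with a library left out (adjusted p up to 0.15).

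The change of direction between 6 h and 8 d was tested as the difference of the 2 BRM014 effects. It was lower at 8 d for 36 genes and higher for 1, while 18.5% of all genes tested had a lower and 25.7% a higher difference, and the median difference of the 45 was -0.40. The difference for CDC25C was -1.01 ± 0.12 (adjusted p = 3.59e-07), with 13.3, 12.5 and 13.2 TPM with BRM014 at 8 d and 18.6, 18.7 and 16.5 TPM with DMSO. SPC25 differed by -0.75, the checkpoint kinase TTK by -0.74, HMMR by -0.73 and ESPL1 by -0.63. In 14 genes a rise at 6 h and a fall at 8 d both passed the test, among them ESPL1, PRC1, INCENP, CDC20 and MKI67. Of all genes 26.8% were higher at 6 h and 23% lower at 8 d, and the share with both was not counted. The rises of CDC20, MKI67, TTK, AURKB, FOXM1 and CDK1 at 6 h and the falls of PLK4 and CDK1 at 8 d were calls that ended when some library was left out. CDC20 had 320, 266 and 297 TPM with BRM014 and 267, 215 and 258 TPM with DMSO at 6 h. At 8 d it had 153, 152 and 154 TPM with BRM014 and 170, 199 and 195 TPM with DMSO. Without Jurkat 6 h replicate 2 in both arms the difference was lower at 8 d for 38 genes and higher for 1. The DMSO groups differed from each other as well, with 15 genes lower and 4 higher at 8 d than at 6 h (18.7% of all genes were lower and 16.6% higher). A fit of these groups alone called 6 of the 45, the same with a replicate block 0, and fits with a library left out 13 to 24. BIRC5 was lower by 0.43 and CCNB1 by 0.39, and CDC25C was higher by 0.41. The part of culture time, or of the day of preparation, in the contrast of 6 h and 8 d was not tested.

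**Figure D4:**
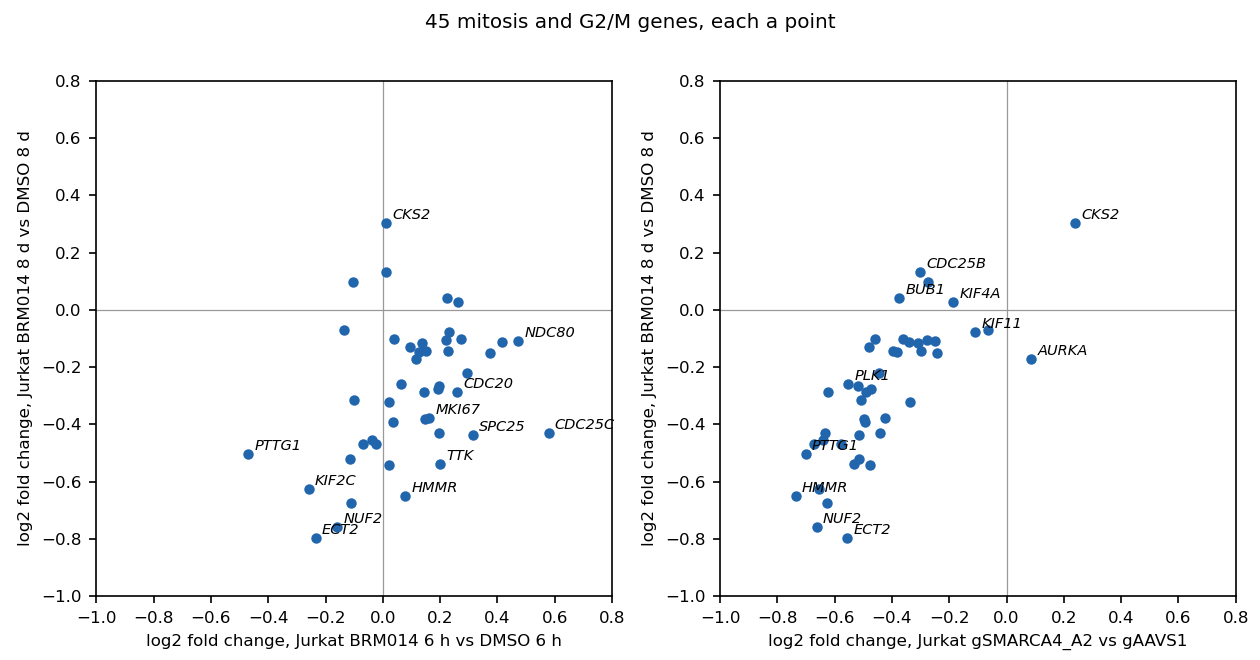
Log2 fold changes of the 45 genes, each a point, in Jurkat. On the vertical axis of both panels is BRM014 against DMSO at 8 d, and on the horizontal axis is BRM014 against DMSO at 6 h (left) or gSMARCA4_A2 against gAAVS1 (right). Most points lie right of and below 0 in the left panel and lower left in the right panel, where CKS2 stands alone at the upper right.

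The 8 d inhibitor and the gSMARCA4_A2 comparisons share no library. Across the 45 genes Pearson's r was 0.77 and Spearman's rho 0.83, given as a description of genes measured in the same cell line and held in the same table. With gSMARCA4 r was 0.70, with gARID1A_1B 0.52 and with gARID1A 0.36. AURKA, which did not pass the test in gSMARCA4_A2, had 60.3, 58.1 and 59.1 TPM with BRM014 at 8 d and 66.9, 67.4 and 65.8 TPM with DMSO (-0.17, adjusted p = 0.0254). That call ended in 4 of 6 fits with a library left out. BUB1 fell in gSMARCA4_A2 (-0.38) and did not pass the test at 8 d (0.04, adjusted p = 0.714). The difference between these comparisons was not tested for either gene. Between 6 h and 8 d of BRM014 r was 0.37.

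In the main fit, the number of the 45 genes called after 6 h of BRM014 differed between CCRF-CEM, KOPT-K1 and TALL-1. In CCRF-CEM 17 genes rose and 4 fell, while 28.9% of all 16241 genes tested were higher and 20.9% lower, with a median of 0.17 for the 45, against 0.05 over all genes. After median-ratio rescaling 10 were higher and 4 lower. In KOPT-K1 2 rose and 3 fell (22.9% of all genes were higher and 15.2% lower, median of the 45 -0.04). Without KOPT-K1 BRM014 replicate 3 the counts were 0 higher and 3 lower. In TALL-1 3 rose and 6 fell (26.6% of all genes were higher and 19.3% lower, median of the 45 -0.09). These counts come from a fit without pairing. A fit of each line alone with a replicate block called more genes in each, and its counts differed less between the lines. The difference in counts between lines thus depended on the fit. Only CCRF-CEM met the rule for pairing (counts and rule are given below). Leaving replicate 3 out of both TALL-1 groups, chosen after the data were seen, gave 2 higher and 7 lower, while leaving out only DMSO replicate 3 gave 2 higher and 14 lower with a median of -0.23. The TALL-1 median was above 0 without BRM014 replicate 3 (0.04) or DMSO replicate 2 (0.02), so its sign rested on single libraries. The summed level of the 45 genes ran from 6441 to 8383 TPM with BRM014 and from 6386 to 8575 TPM with DMSO in TALL-1, and the lowest value of each group was replicate 3.

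NDC80 rose the most in CCRF-CEM, with 136, 123 and 145 TPM with BRM014 and 81.2, 80.7 and 89.4 TPM with DMSO (0.68 ± 0.09, adjusted p = 1.60e-05). CDC25C had 21.1, 20.2 and 20.6 TPM with BRM014 and 13.9, 13.0 and 13.2 TPM with DMSO in CCRF-CEM (0.59 ± 0.12), and in KOPT-K1 it did not pass the test (0.08, adjusted p = 0.69). The test of the difference between these effects gave 0.51 for CDC25C. Over all genes 8.62% had a higher and 9.72% a lower effect in CCRF-CEM. Of the 45 genes the test called 7 (15.6%), each with the higher effect there. That count was 3 or 4 when any 1 of CCRF-CEM DMSO replicate 2, CCRF-CEM BRM014 replicate 1, KOPT-K1 DMSO replicates 2 and 3 or KOPT-K1 BRM014 replicates 1 and 2 was left out. Between CCRF-CEM and TALL-1 7 effects were higher and 1 lower in CCRF-CEM (10.5% and 9.85% of all genes), and 15 were called without TALL-1 DMSO replicate 3. Jurkat was not set against the other lines in a fit. Its libraries came from another extraction and a kit without strand information, and line and preparation cannot be told apart there.

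BUB1 rose at 6 h in all 4 lines. It had 375, 369 and 324 TPM with BRM014 and 198, 207 and 151 TPM with DMSO in TALL-1 (0.95 ± 0.10, adjusted p = 9.94e-07), where even the lowest BRM014 library was above every DMSO library. In CCRF-CEM it had 180, 176 and 195 TPM with BRM014 and 115, 117 and 123 TPM with DMSO (0.63 ± 0.10). In KOPT-K1 it had 160, 165 and 179 TPM with BRM014 and 129, 133 and 138 TPM with DMSO (0.33 ± 0.10), a call that ended without BRM014 replicate 3 (adjusted p = 0.0540). The rise in Jurkat (0.22, adjusted p = 0.0428) came with overlapping groups, 220, 181 and 209 TPM with BRM014 and 196, 148 and 181 TPM with DMSO. It ended without DMSO replicate 2 or BRM014 replicate 1 or 3 (adjusted p up to 0.323). The effect in KOPT-K1 was lower than in TALL-1 by 0.61, and that of TTK by 0.68. These were the 2 genes called in the test of that difference (4.44% of the 45). Of all genes 10.1% were lower and 11.2% higher, so the 45 were called less often than all genes. TTK, the kinase that starts checkpoint signalling, had 175, 183 and 164 TPM with BRM014 and 112, 113 and 99.7 TPM with DMSO in TALL-1 (0.68 ± 0.07, adjusted p = 8.23e-07). In KOPT-K1 TTK had 52.6, 58.1 and 61.6 TPM with BRM014 and 53.7, 58.1 and 60.5 TPM with DMSO, nearly the same values in both groups.

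**Figure D5:**
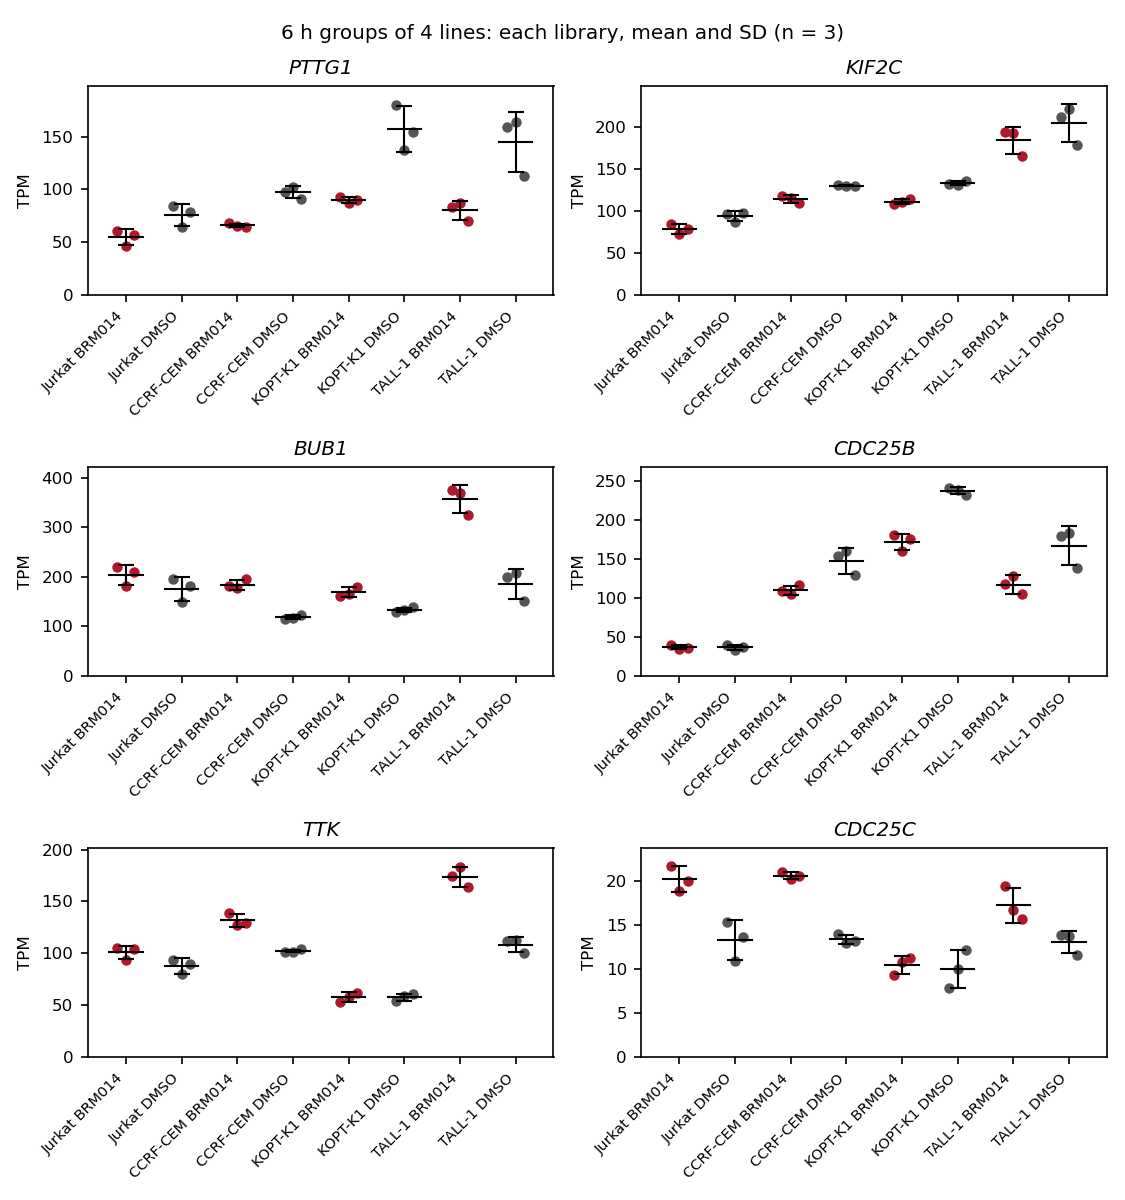
TPM of 6 mitotic genes after 6 h of BRM014 (red) or DMSO (grey) in 4 T-ALL lines, with 1 point per library, a line at the mean and bars of 1 SD (n = 3). Jurkat and the other lines come from separate tables, so levels are compared within a line. PTTG1 is lower with BRM014 and BUB1 higher in each line, and CDC25B is lower in the 3 lines other than Jurkat.

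PTTG1 passed the test as lower in each of the 9 comparisons, 4 of which share gAAVS1. In CCRF-CEM it had 67.8, 65.5 and 64.5 TPM with BRM014 and 97.9, 103 and 91.1 TPM with DMSO (-0.55 ± 0.13, adjusted p = 1.94e-03). In KOPT-K1 it had 93.1, 86.9 and 90.4 TPM with BRM014 and 181, 138 and 154 TPM with DMSO (-0.79 ± 0.13). In TALL-1 it had 83.2, 87.6 and 69.9 TPM with BRM014 and 159, 165 and 113 TPM with DMSO (-0.84 ± 0.13, adjusted p = 6.10e-05). At 8 d in Jurkat it had 52.9, 51.9 and 55.1 TPM with BRM014 and 72.1, 82.7 and 73.6 TPM with DMSO (-0.50 ± 0.09). Its copies PTTG2 and PTTG3P were at or below 0.413 TPM in Jurkat and 1.94 TPM in the other lines. PTTG1 (chromosome 5, 160421822 to 160428744, hg38) lies far from KIF2C (chromosome 1, 44739818 to 44767767), the other gene lower in nearly all comparisons.

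KIF2C was lower in 8 of the 9 comparisons, all but TALL-1 (-0.15, adjusted p = 0.114). In KOPT-K1 it had 108, 111 and 114 TPM with BRM014 and 132, 130 and 136 TPM with DMSO (-0.26, adjusted p = 0.0103). In CCRF-CEM it had 118, 115 and 109 TPM with BRM014 and 130, 130 and 129 TPM with DMSO (-0.19, adjusted p = 0.045), a call that ended in 6 of 6 fits with a library left out. CDC25B fell at 6 h in the 3 lines other than Jurkat. It had 117, 128 and 105 TPM with BRM014 and 180, 183 and 138 TPM with DMSO in TALL-1 (-0.50 ± 0.11, adjusted p = 1.13e-03). In KOPT-K1 it had 180, 160 and 176 TPM with BRM014 and 241, 239 and 232 TPM with DMSO (-0.47 ± 0.11), and in CCRF-CEM 108, 104 and 116 TPM with BRM014 and 154, 161 and 129 TPM with DMSO (-0.42 ± 0.11). In Jurkat at 6 h it had 39.6, 34.2 and 35.5 TPM with BRM014 and 38.7, 33.2 and 36.4 TPM with DMSO, with overlapping groups (0.01).

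The 6 h effects of lines in separate tables share no library. Across the 45 genes Pearson's r was 0.77 between Jurkat and CCRF-CEM, 0.65 between Jurkat and KOPT-K1 and 0.48 between Jurkat and TALL-1. These are descriptions over 45 genes, since genes of one programme are not independent points. Of the 45 genes 15 were higher in both Jurkat and CCRF-CEM, and BUB3, KIF2C and PTTG1 were lower in both. The shares of all genes called in both lines were not counted.

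Other genes of cell division were counted in the same way. Over all genes tested 21.1% were lower and 40.9% higher in gSMARCA4_A2, 23% lower and 36.9% higher at 8 d, and 26.8% higher and 20.7% lower at 6 h in Jurkat. Of 60 further mitosis genes 55 were lower and 1 higher in gSMARCA4_A2, 53 lower and 1 higher at 8 d, and 31 higher and 8 lower at 6 h in Jurkat. CENPI, a centromere protein, averaged 14.5 ± 0.826 TPM in gSMARCA4_A2 and 26.5 ± 4.3 TPM in gAAVS1. At 6 h it averaged 35.0 ± 2.00 TPM with BRM014 and 22.2 ± 1.29 TPM with DMSO, and at 8 d 14.7 ± 1.14 TPM with BRM014 and 31.1 ± 0.806 TPM with DMSO. The 42 genes of DNA replication act in S phase. Of these 41 were lower and 0 higher in gSMARCA4_A2, 34 lower and 2 higher at 8 d, and 23 higher and 3 lower at 6 h in Jurkat. CDC6, which loads the replicative helicase, fell by 1.05 in gSMARCA4_A2 and by 0.93 at 8 d on the log2 scale, MCM2, a subunit of that helicase, by 0.70 and 0.41, and PCNA, the sliding clamp of the fork, by 0.60 and 0.49. The mRNAs of replication-dependent histones are also made in S phase and mostly carry no poly(A) tail, so that little of them is captured here. Of 20 such genes 12 passed the filter in Jurkat, and 9 of them were higher and 0 lower in gSMARCA4_A2 (median 1.41), and 6 higher and 0 lower at 8 d (median 0.49). The 20 summed to between 98.3 and 128 TPM in gSMARCA4_A2 and between 29.6 and 34.0 TPM in gAAVS1, and to between 37.0 and 42.5 TPM with BRM014 and between 19.3 and 25.5 TPM with DMSO at 8 d.

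Of 22 DREAM, MuvB and E2F genes, the regulators of the programme, 10 were lower and 8 higher in gSMARCA4_A2 (21.1% and 40.9% of all genes), and 8 lower and 7 higher at 8 d (23% and 36.9% of all genes). MYBL2, the partner of MuvB in late cell cycle, fell by 0.55 in gSMARCA4_A2 and by 0.26 at 8 d on the log2 scale, and E2F1 by 0.64 and 0.51. The MuvB subunit LIN54, which binds the TTTGAA element, fell by 0.37 in gSMARCA4_A2, by 0.55 in gARID1A_1B and by 0.58 at 8 d. LIN9, another MuvB subunit, did not pass the test in gSMARCA4_A2 (-0.04, adjusted p = 0.497) or at 8 d (0.09, adjusted p = 0.153). CDKN1A, the p21 inhibitor of CDKs, rose by 0.41 in gSMARCA4_A2 (adjusted p = 0.0381, with overlapping groups) and by 0.87 at 8 d (adjusted p = 1.33e-04). It was lower in gARID1A_1B (-0.48) and gARID1A (-0.72).

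Several of the 45 genes share exon bases with a gene on the other strand, and the Jurkat kit does not mark strand. FOXM1 shares 781 bases with ITFG2, PRC1 406 with PRC1-AS1, CDC25C 293 with FAM53C, CCNA2 254 with EXOSC9 and HMMR 113 with HMMR-AS1. KIF20A shares 132 bases with BRD8 and 68 with CDC23. Shorter stretches are shared by ANLN (78 with KIAA0895), KIF4A (77 with PDZD11), PLK1 (42 with ERN2) and NUF2 (5 with RGS5). Reads from these stretches cannot be assigned to either gene in Jurkat, and the values of those genes are uncertain to that extent.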

How the data were processed

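Poly(A) RNA-seq levels came from 2 tables, 1 for Jurkat and 1 for the remaining lines, in which the authors deposited TPM for each library beside a gene length. Per the submitters' processing notes the tools were HISAT2 2.2.1, featureCounts 2.0.3 and DESeq2 1.38.2 with hg38, and strand settings of the counting are not given in the sources used here. From TPM and gene length, whole reads were recovered for 100% of values within a tolerance of 0.01 reads, and these gave the depths.

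The 45 genes, the other gene lists and the tests were chosen with earlier results of these data known. Groups were taken from the labels. A gene entered the tests if 3 or more libraries reached 1 TPM, which left 17936 genes in the Jurkat table and 16241 in the second. Values were log2(TPM + 1), on which a fold change understates the change of low genes. limma 3.58.1 in R 4.3.3 (eBayes with trend and robust settings) was fitted once per table over all its groups (18 and 12 residual degrees of freedom), and p-values were adjusted by Benjamini and Hochberg over all genes tested, with a threshold of 0.05. The steps were tested on simulated data. Differences between effects were contrasts of the same fit. By rule, the genes described with values in every library were taken from the up to 6 with the largest rise and 6 with the largest fall per comparison, without overlap, and from CCNB1, CDK1, PLK1, CDC20, AURKA, CENPF, TOP2A, MKI67 and FOXM1, and not every such gene is described in every comparison. From other lists up to 3 of the most changed genes were named, with fixed regulators and S phase genes. Other values in the text were chosen after they were seen.

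Replicate numbers met the rule for pairing only if all 3 same-numbered pairs correlated over 0.1, which held for CCRF-CEM alone (0.12, 0.29 and 0.45). The main fit used no pairing in any line, CCRF-CEM included, and a replicate block entered only as an alternative. Alternatives were a pseudocount of 0.1, no filter, a filter of 5 TPM, median-ratio rescaling, mitochondrial genes left out, eBayes without trend and not robust, fits of only the groups compared, the same with a replicate block, limma-voom on recovered reads, each library left out, and replicate 3 left out of both CCRF-CEM groups. Replicate 3 of TALL-1 and replicate 2 of Jurkat at 6 h were left out of both groups as alternatives chosen after seeing the data. Motifs were counted with Python 3.11.15.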

Additional observations from a re-analysis of the deposited data

Results flagged for a closer look

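The BRM014 effect in Jurkat differed between 8 d and 6 h, by the test of the difference itself, for 37 of the 45 genes, 36 lower and 1 higher at 8 d, while 18.5% of all genes tested were lower and 25.7% higher. The genes that rose at 6 h and fell at 8 d had differences, 8 d minus 6 h on the log2 scale, of -1.01 for CDC25C, -0.75 for SPC25, -0.74 for TTK, -0.63 for ESPL1, -0.55 for CDC20, -0.54 for MKI67, -0.52 for PLK4, -0.52 for DLGAP5, -0.47 for PRC1, -0.46 for INCENP, -0.43 for AURKB, -0.37 for CDCA8, -0.30 for CDK1 and -0.27 for FOXM1.

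At 6 h the effect in CCRF-CEM was higher than in KOPT-K1 for 7 genes, by 0.59 for ESPL1, 0.57 for NDC80, 0.52 for SPC25, 0.51 for CDC25C, 0.36 for TTK, 0.28 for FOXM1 and 0.28 for PLK4 (8.62% of all genes had a higher and 9.72% a lower effect in CCRF-CEM). Between CCRF-CEM and TALL-1 it differed for 8 genes, by 0.65 for ESPL1, 0.63 for NDC80, 0.47 for KIF11, 0.37 for PRC1, 0.36 for CCNA2, 0.34 for FOXM1, 0.34 for PLK4 and -0.32 for TTK (10.5% of all genes were higher and 9.85% lower in CCRF-CEM). Between KOPT-K1 and TALL-1 it differed for 2 genes, by -0.61 for BUB1 and -0.68 for TTK (11.2% of all genes were higher and 10.1% lower in KOPT-K1).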

How the results depend on the processing

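Among the genes named by rule in a comparison, no call reversed its direction under an alternative, and other calls were not checked for this. The median of the 45 genes changed sign when single libraries were left out in TALL-1 (-0.23 to 0.04). It also did so in the difference between KOPT-K1 and TALL-1 (-0.10 to 0.13). Median-ratio rescaling gave medians of the 45 genes of -0.57 in gSMARCA4_A2, -0.33 at 8 d, -0.18 in gSMARCA4, 0.086 in CCRF-CEM, -0.11 in KOPT-K1, -0.38 for gSMARCA4_A2 against gSMARCA4 and -0.35 for gSMARCA4_A2 against gARID1A_1B, where it moved the median of all genes by -0.11. limma-voom on recovered reads gave -0.51 in gSMARCA4_A2, -0.20 in gARID1A_1B and -0.31 for gSMARCA4_A2 against gARID1A_1B. With mitochondrial genes left out the median for gARID1A_1B against gARID1A was -0.015. The split of higher and lower genes became 1 and 3 in KOPT-K1 after rescaling, and without mitochondrial genes 1 and 3 for gARID1A_1B against gARID1A and 5 and 11 for DMSO at 8 d against 6 h. Fits of only the groups compared called 11 genes in KOPT-K1, 6 for DMSO at 8 d against 6 h (1 higher and 5 lower) and 11 for CCRF-CEM against KOPT-K1. With the replicate block added, the counts were 26 in CCRF-CEM, 23 in KOPT-K1 and 28 in TALL-1. The block fit called 25 for CCRF-CEM against KOPT-K1, 28 for CCRF-CEM against TALL-1 and 11 for KOPT-K1 against TALL-1. For DMSO at 8 d against 6 h it called 0, with 15 at an unadjusted limma p under 0.05. Without the block, limma-voom over all Jurkat groups called 20 for DMSO at 8 d against 6 h. Of the lines fitted with the block only CCRF-CEM met the rule for pairing, and in the other lines and in Jurkat the lowest correlation of a same-numbered pair was 0.09 or less. By another measure, all 3 same-numbered pairs correlated best with each other in KOPT-K1 and in Jurkat at 6 h. This held for 2 pairs in CCRF-CEM, 2 in TALL-1 and 0 in Jurkat at 8 d. The rule therefore does not show that libraries outside CCRF-CEM were unpaired. CCRF-CEM without replicate 3 had 13 genes called. With each library left out in turn, the genes called ranged from 13 to 20 in gARID1A, 19 to 28 in Jurkat at 6 h, 13 to 24 for DMSO at 8 d against 6 h, 3 to 5 in KOPT-K1, 6 to 16 in TALL-1, 2 to 4 for gARID1A_1B against gARID1A, 3 to 8 for CCRF-CEM against KOPT-K1 and 7 to 15 for CCRF-CEM against TALL-1. The medians ranged from -0.28 to -0.25 at 8 d, -0.49 to -0.44 in gSMARCA4_A2, 0.076 to 0.17 in Jurkat at 6 h, -0.080 to -0.019 in KOPT-K1, -0.074 to -0.035 for gARID1A_1B against gARID1A, -0.12 to -0.065 for DMSO at 8 d against 6 h, -0.23 to -0.19 for gSMARCA4_A2 against gARID1A_1B and 0.16 to 0.27 for CCRF-CEM against KOPT-K1. The causes of these movements were not tested. No gene of the 45 had fewer than 176 reads in a library, and each group had 3 libraries.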

Other observations

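Of 17 condensin and cohesin genes 11 fell and 3 rose in gSMARCA4_A2, while 21.1% of all genes tested were lower and 40.9% higher, with NCAPG2, NCAPH and NCAPG, subunits of the condensins that compact chromosomes, lower by 0.58, 0.51 and 0.49 on the log2 scale. Of 17 APC/C genes 10 fell and 3 rose there. CDC16, an APC/C subunit, averaged 94.1 ± 1.19 TPM in gSMARCA4_A2 and 60.8 ± 3.01 TPM in gAAVS1 (SD, n = 3), a log2 fold change of 0.62, while ANAPC7 and ANAPC15 were each lower by 0.43.

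At 6 h of BRM014 in Jurkat DSN1, a kinetochore protein, averaged 76.0 ± 3.46 TPM with BRM014 and 45.8 ± 0.808 TPM with DMSO (log2 fold change 0.72). LMNB1, the lamin of the nuclear envelope, averaged 115 ± 9.7 TPM with BRM014 and 179 ± 11.9 TPM with DMSO (-0.63). At 8 d PIMREG averaged 37.1 ± 0.886 TPM with BRM014 and 20.0 ± 0.959 TPM with DMSO (0.86), the only 1 of the 60 further mitosis genes that rose then.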
